A study of Drosophila melanogaster with 12 samples.

Results

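The larval storage protein genes of the fat body were followed in RNA from imaginal discs of *Drosophila melanogaster* larvae in the third instar. The genes were chosen by name, as the rows whose symbol is *Lsp1alpha*, *Lsp1beta*, *Lsp1gamma*, *Lsp2*, *Fbp1* or *Fbp2*, and all 6 of the 17208 genes in each table were found. The eye antennal disc pools came from GMR-Gal4 > UAS-*fuss* larvae, which overexpress *fuss* behind the morphogenetic furrow, and from GMR-Gal4 > w1118 control larvae, so both genotypes carry the driver. The wing disc pools came from nub-Gal4 > UAS-*fuss* larvae, in which the driver is active in the wing pouch, and from nub-Gal4 > w1118 control larvae. There were 3 libraries of each genotype and tissue, with 40 eye discs or 30 wing discs in a library. The source field of the eye samples gives nub-gal4 instead. The driver was taken here from their genotype field and the study's text, where it is GMR-Gal4.

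Hexamerins are large proteins that the fat body of the feeding larva makes and secretes into the haemolymph in great amounts. Before pupariation the fat body takes them up again and stores them as a source of amino acids for building the adult. *Lsp1alpha*, *Lsp1beta* and *Lsp1gamma* encode the subunits of larval serum protein 1, and *Lsp2* encodes the subunit of larval serum protein 2. *Fbp1* encodes a receptor for the uptake of hexamerins and is induced by ecdysone, and *Fbp2* encodes a fat body protein related to alcohol dehydrogenase. Imaginal discs are epithelia that are not known as a source of these proteins.

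The genes lie apart from each other. In the BDGP6.54 annotation *Lsp1alpha* (FBgn0002562) lies on chromosome X from 12490291 to 12492982, *Lsp1beta* (FBgn0002563) on 2L from 898500 to 901316 and *Lsp1gamma* (FBgn0002564) on 3L from 66430 to 68995, each on the plus strand with 2 exons. *Lsp2* (FBgn0002565) is a gene of 1 exon on the plus strand of 3L from 12129393 to 12131869. *Fbp1* (FBgn0000639) also has 1 exon and lies on the minus strand of 3L from 14094589 to 14098053. *Fbp2* (FBgn0000640) lies on the plus strand of 2L from 9426784 to 9427917, and its last 48 bases overlap the gene *CG42847*. Most of *Lsp2*, 2096 bases or 84.6% of the gene, is covered on the other strand by the noncoding gene *asRNA:CR11538*. Use of the strand in counting is not given in the sources used here, so reads of *Lsp2* and of this antisense gene cannot be told apart. The Lsp1 genes are paralogs, and reads could be split between them in the quantification.

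Values per library were not analysed here. The deposited tables give for each gene the mean normalized count over the 6 libraries of a tissue and the authors' DESeq2 comparison of the genotypes, as a log2 fold change (*fuss* over control) with standard error, p-value and adjusted p. Library spread can be seen only through that standard error and through p-values that were withheld for outlying counts, and the depth of each library is unknown. Over all genes, the means add up to 29977881 in eye discs and 34175754 in wing discs. Separate crosses for the pools are not stated, so a p-value here reflects pool to pool spread, which may be technical. In eye discs each genotype had 1 library on lane 5 and 2 on lane 6. In wing discs all 3 *fuss* libraries were on lane 5, against 1 control library on lane 5 and 2 on lane 6, so lane and genotype cannot be fully told apart there. For the *fuss* gene itself the log2 fold change was 8.0 (standard error 0.44) in eye discs and 8.60 (standard error 0.18) in wing discs. The retinal gene *gl* had a mean normalized count of 7298 in eye discs and 51.3 in wing discs, and the wing gene *vg* had 100.7 in eye discs and 6126 in wing discs. These tables were normalized separately.

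RNA of the storage proteins was abundant in both disc preparations. *Fbp1* was the highest of the 6 genes, with a mean normalized count of 52476 in eye discs, where it ranked 66 among all genes, and 160688 in wing discs, where it ranked 11. *Lsp1gamma* followed with 31756 (rank 139) in eye discs and 74806 (rank 44) in wing discs. *Lsp2* had 26034 (rank 165) in eye discs and 71733 (rank 47) in wing discs, and *Lsp1beta* had 20417 (rank 213) and 61731 (rank 65). The remaining genes were lower by these counts. *Lsp1alpha* had 6490 (rank 900) in eye discs and 12549 (rank 447) in wing discs, and the short gene *Fbp2* had 5238 (rank 1167) and 14168 (rank 394). All 6 genes were among the 500 highest in wing discs and 4 of them in eye discs. Together they made up 0.475% of the summed mean normalized counts in eye discs and 1.16% in wing discs, which were normalized separately.

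Counts of genes of different length can be compared only per length. Per kilobase of the longest annotated transcript, the order in both tissues was *Fbp1*, *Lsp1gamma*, *Lsp2*, *Lsp1beta*, *Fbp2* and *Lsp1alpha*. The level per kilobase of *Fbp1* was 15145 in eye discs and 46375 in wing discs, and that of *Lsp1alpha* was 2472 in eye discs and 4781 in wing discs. *Lsp1gamma* (12698 in eye discs, 29910 in wing discs) and *Lsp2* (10510 and 28960) were close to each other per kilobase. The tables hold no error of a level, so it was not tested which neighbours in this order differ. Within the Lsp1 subunits, *Lsp1gamma* held 56.2% of the summed level per kilobase in eye discs and 52.3% in wing discs, and *Lsp1alpha* held 10.9% and 8.37%.

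In eye discs, 5 of the 6 genes had a log2 fold change below 0 with *fuss* overexpression, and 0 of 6 passed an adjusted p under 0.01 in the authors' DESeq2 test. Of all 10788 genes with an adjusted p in eye discs, 3.34% passed. At an unadjusted p under 0.05, 0 of the 6 genes passed, against 1526 of all 14783 genes with a p-value. The level of each genotype follows, as an approximation, from the mean over both genotypes and the fold change, and is called the implied normalized count here. In bulk RNA, fewer cells of a type and less RNA per cell cannot be told apart.

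Among the hexamerin subunit genes of the eye disc pools, *Lsp1gamma* had the lowest log2 fold change. Its implied normalized count was 18314 in *fuss* overexpressing and 45199 in control eye discs, a log2 fold change of -1.30 (standard error 0.93, 95% interval from -3.12 to 0.51, adjusted p = 0.652 in the authors' DESeq2 test). *Lsp1beta* had implied normalized counts of 12682 in *fuss* overexpressing and 28151 in control eye discs (log2 fold change -1.15, standard error 0.89, adjusted p = 0.716 by DESeq2). *Lsp1alpha*, the subunit gene on the X chromosome, had 4863 in *fuss* overexpressing and 8116 in control eye discs, with the widest error of the 6 genes (log2 fold change -0.74, standard error 1.23, adjusted p = 0.950 by DESeq2). For *Lsp2* the implied normalized counts were 19808 and 32261 in *fuss* overexpressing and control eye discs (log2 fold change -0.70, standard error 0.63, adjusted p = 0.799 by DESeq2). The intervals of all these genes include 0.

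The fat body protein genes were nearest to 0 in eye discs. *Fbp1* had an implied normalized count of 43780 in *fuss* overexpressing and 61172 in control eye discs (log2 fold change -0.48, standard error 0.70, 95% interval from -1.86 to 0.89). *Fbp2* had 5268 in *fuss* overexpressing and 5207 in control eye discs (log2 fold change 0.02, standard error 0.68, 95% interval from -1.31 to 1.35). As a fold, the interval of *Fbp2* ran from 0.402 to 2.54 times the control level. The median log2 fold change of the 6 genes was -0.72, beside -0.0035 over all genes with an adjusted p. Summed over the 6 genes, the implied normalized count was 104716 in *fuss* overexpressing and 180107 in control eye discs.

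**Figure D1:**
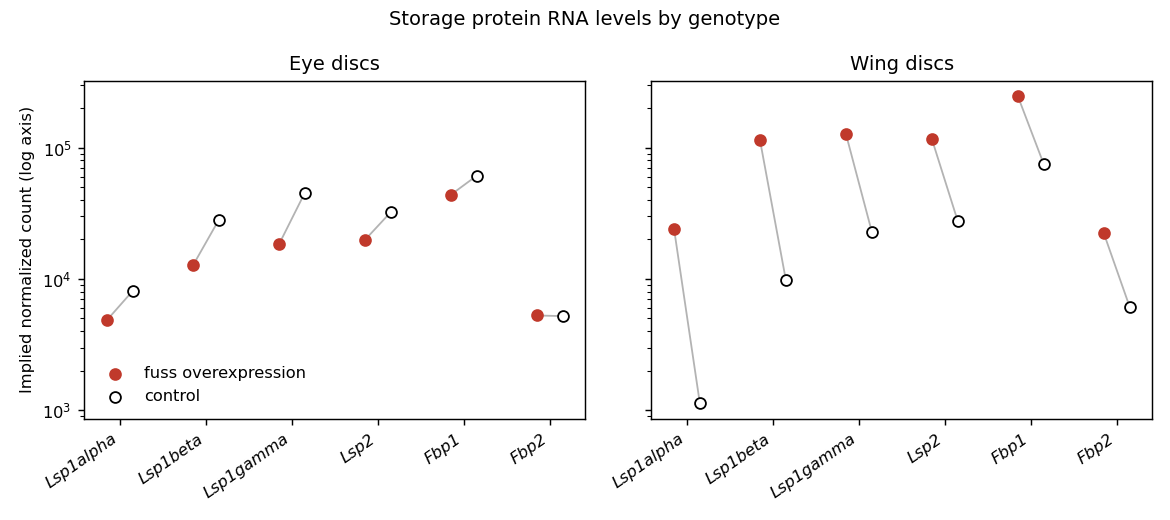
Implied normalized count (log axis) of each storage protein gene in *fuss* overexpression (filled) and control (open) libraries of eye discs (left) and wing discs (right). In wing discs all 6 filled points lie above their open points, with *Lsp1alpha* at 23973 against 1126, and in eye discs 5 of 6 lie below; no errors are drawn, and 0 of the differences with an adjusted p passed 0.01.

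In wing discs the 6 genes had log2 fold changes above 0, from 1.71 to 4.41. Here too 0 genes passed an adjusted p under 0.01 in the authors' DESeq2 test, of the 5 that have an adjusted p. Of all 10926 genes with an adjusted p in wing discs, 10.5% passed. At an unadjusted p under 0.05, 2 of these 5 genes passed, *Lsp1alpha* and *Lsp1beta*, against 2864 of all 14231 genes with a p-value.

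The subunit gene *Lsp1alpha* had the largest fold change of the 6 genes. Its implied normalized count was 23973 in *fuss* overexpressing and 1126 in control wing discs, a fold change of 21.3 with a 95% interval from 2.74 to 166. Its log2 fold change was 4.41 (standard error 1.51, p = 0.00347, adjusted p = 0.0265 in the authors' DESeq2 test), past an adjusted p of 0.05 and not past 0.01. *Lsp1beta* had implied normalized counts of 113623 in *fuss* overexpressing and 9839 in control wing discs, a fold change of 11.5 with a 95% interval from 1.51 to 88.2. Its log2 fold change was 3.53 (standard error 1.50, p = 0.0183, adjusted p = 0.0939 in the authors' DESeq2 test). The intervals of these 2 genes lie above 0 before adjustment for the number of genes.

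*Lsp1gamma* has a statistic and no p-value in the wing table. By default DESeq2, the tool the authors used, withholds the p-value of a gene when the count of at least 1 library is an outlier by Cook's distance. This was the case for 126 genes in wing discs and for 61 in eye discs, where *Lsp1gamma* has a p-value. Of the 4812 genes whose mean reached 1000 in wing discs, 4 lack a p-value. The implied normalized count of *Lsp1gamma* was 126687 in *fuss* overexpressing and 22924 in control wing discs, and its log2 fold change was 2.47 (standard error 1.43, 95% interval from -0.33 to 5.27). Which library stood apart, and in which genotype, cannot be read from these values.

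The other hexamerin gene and the fat body protein genes had smaller fold changes in wing discs. *Lsp2* had implied normalized counts of 115837 in *fuss* overexpressing and 27628 in control wing discs (log2 fold change 2.07, standard error 1.16, adjusted p = 0.247 by DESeq2). The value of the antisense gene *asRNA:CR11538* that overlaps it was 2.83 (standard error 2.30) in wing discs and -0.78 (standard error 1.43) in eye discs. *Fbp1* had 246265 in *fuss* overexpressing and 75110 in control wing discs (log2 fold change 1.71, standard error 1.21, adjusted p = 0.398 by DESeq2). *Fbp2* had 22207 in *fuss* overexpressing and 6129 in control wing discs (log2 fold change 1.86, standard error 1.27, adjusted p = 0.377 by DESeq2). The intervals of the 6 genes overlap each other, and whether the subunit genes differ from *Fbp1* and *Fbp2* was not tested, since the genes share their libraries.

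The median log2 fold change of the 6 genes in wing discs was 2.27, or 2.07 without *Lsp1gamma*, beside 0.0046 over all genes with an adjusted p. Summed over the 6 genes, the implied normalized count was 648592 in *fuss* overexpressing and 142756 in control wing discs, a ratio of 4.54. The make-up of the Lsp1 subunits per kilobase was 9.03% *Lsp1alpha*, 40.9% *Lsp1beta* and 50.1% *Lsp1gamma* in *fuss* overexpressing wing discs, and 3.26%, 27.2% and 69.6% in control wing discs, with no error available for these shares.

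**Figure D2:**
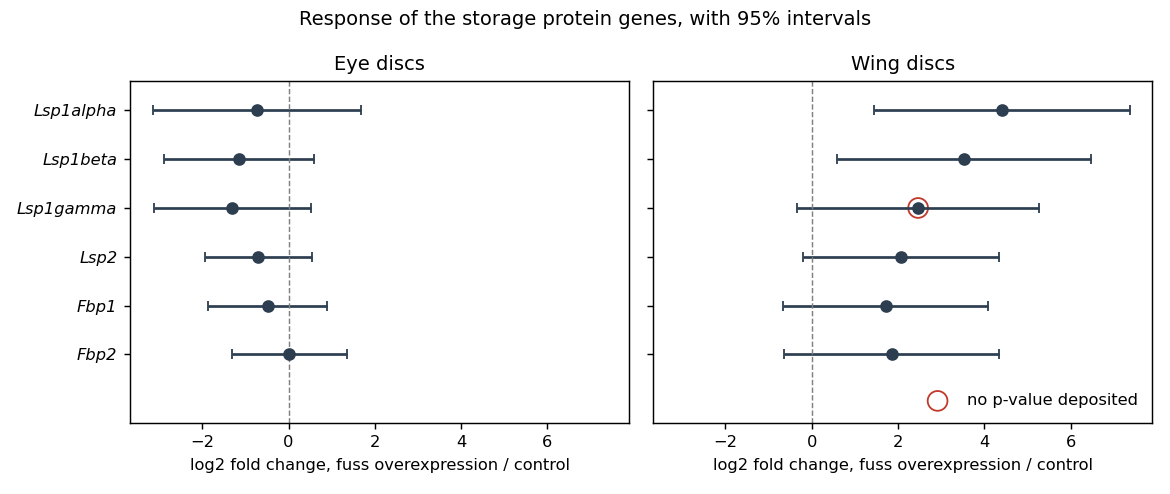
Log2 fold change (*fuss* overexpression / control, horizontal axis) of each gene in eye discs (left) and wing discs (right), with 95% intervals from the deposited standard errors; the ring marks *Lsp1gamma*, which has no p-value in wing discs. All 6 intervals include 0 in eye discs, and those of *Lsp1alpha* and *Lsp1beta* lie above 0 in wing discs before adjustment.

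The response in eye discs minus the response in wing discs was tested for each gene over the 9359 genes that reached a mean of 10 and had a p-value in both tissues. Of these genes, 2.48% passed an adjusted p under 0.01, and of the 5 storage protein genes tested 0 passed, with adjusted p-values from 0.113 to 0.703 by Benjamini-Hochberg adjustment over all genes, and 3 had an unadjusted p under 0.05, as had 13.3% of all genes tested (1245 genes). The difference was -5.15 on the log2 scale for *Lsp1alpha* (standard error 1.95, adjusted p = 0.122 over all genes) and -4.68 for *Lsp1beta* (standard error 1.74, adjusted p = 0.113 over all genes). For *Lsp2* it was -2.77 (95% interval from -5.35 to -0.19). For *Fbp1* it was -2.20 (95% interval from -4.94 to 0.55) and for *Fbp2* -1.84 (95% interval from -4.66 to 0.98). *Lsp1gamma*, which was not tested, had a difference of -3.77 (standard error 1.70, 95% interval from -7.11 to -0.43). For the 5 genes tested, a difference between the tissues was thus not shown after adjustment.

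The standard errors of the storage protein genes stood far above those of other genes of their abundance. In wing discs they ran from 1.16 to 1.51, against a median of 0.137 over all genes with an adjusted p. For each gene the other genes within a factor of 2 of its mean normalized count were taken for comparison, as a description without a test. Other storage protein genes in that range were kept among these neighbours. *Fbp1* in wing discs had a standard error of 1.21, against a median of 0.083 over its 28 neighbours, of which 0 had a larger one. *Lsp1beta* in wing discs had 1.50 against a median of 0.083 over 149 neighbours, and *Lsp1alpha* had 1.51 against 0.068 over 862 neighbours, of which 1 had a larger error. That 1 neighbour was *asRNA:CR11538* (standard error 2.30), the antisense gene that overlaps *Lsp2*. Across the 6 genes the error in wing discs was 13.7 to 22.2 times the median of the neighbours.

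In eye discs the same held at smaller errors. The standard errors ran from 0.63 for *Lsp2* to 1.23 for *Lsp1alpha*, which is 6.50 to 14.9 times the median of the neighbours. *Lsp1gamma* had 0.93 against a median of 0.091 over 236 neighbours, of which 0 had a larger error, and *Lsp2* had 0.63 against 0.084 over 295 neighbours, of which 2 had a larger error. Those 2 neighbours of *Lsp2* were the storage protein genes *Lsp1beta* (0.89) and *Lsp1gamma*. Read as a coefficient of variation between libraries of a genotype, the errors correspond to 98.1% to 128% for the 6 genes in wing discs and 53.6% to 104% in eye discs. For the neighbours the median coefficient of variation was 5.66% to 7.18% in wing discs and 6.86% to 9.14% in eye discs. This reading takes the same relative spread for both genotypes.

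**Figure D3:**
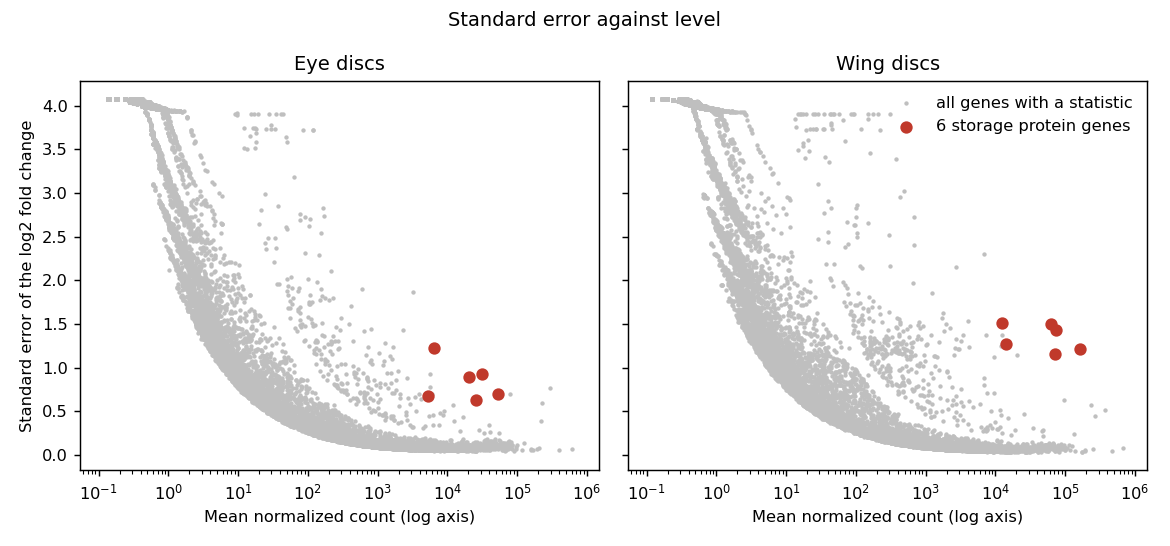
Standard error of the log2 fold change against the mean normalized count (log axis) for all genes with a statistic (grey) and the 6 storage protein genes (red) in eye discs (left) and wing discs (right). The red points lie at 0.63 to 1.23 in eye discs and at 1.16 to 1.51 in wing discs, above nearly all grey points at their level.

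Other genes that mark the fat body were set beside the storage proteins. Of 13 such genes 0 were listed at 0 in either tissue, and 12 have an adjusted p. Over all genes with an adjusted p, 10.5% passed 0.01 in wing discs and 3.34% in eye discs. In wing discs 11 of these 12 had a log2 fold change above 0 and 0 passed an adjusted p under 0.01, with a median of 0.84 beside 0.0046 over all genes. The list's summed implied normalized count was 29791 in *fuss* overexpressing and 12899 in control wing discs, or 14583 and 9257 without *apolpp*, its most abundant gene. For *apolpp*, which encodes the main lipoprotein of the haemolymph, the log2 fold change was 2.06 (standard error 1.12) in wing discs and -0.48 (standard error 0.79) in eye discs. *AkhR*, the receptor of adipokinetic hormone, had 2.83 (standard error 1.34) in wing discs and -0.97 (standard error 0.82) in eye discs. The perilipin gene *Lsd-1* had 2.06 (adjusted p = 0.329 by DESeq2) and -0.66 (adjusted p = 0.854 by DESeq2), and the peptide hormone gene *CCHa2* had 2.17 (standard error 1.26) and 0.10 (standard error 0.49). *Apoltp*, which encodes a lipid transfer particle protein, had 1.59 in wing discs (standard error 0.53, adjusted p = 0.0212 by DESeq2). *Gnmt*, glycine N-methyltransferase, has no p-value in either tissue. Its log2 fold change was 5.68 (standard error 1.61) in wing discs and -0.05 (standard error 1.57) in eye discs, at mean normalized counts of 91.9 and 55.9.

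Errors within this list differed widely. For the triglyceride transfer gene *Mtp* the log2 fold change was -0.02 (standard error 0.11) in wing discs and -0.01 (standard error 0.10) in eye discs. The lipase gene *Hsl* had 0.06 (standard error 0.07) and 0.10 (standard error 0.07). In eye discs 1 gene of the list, the fatty acid synthase gene *FASN1*, was higher with a log2 fold change of 0.32 (adjusted p = 0.00321 by DESeq2), and in wing discs it had 0.84 (standard error 0.35, adjusted p = 0.0875 by DESeq2). In eye discs 7 of the 12 genes had a log2 fold change below 0. The summed implied normalized count in eye discs was 17418 in *fuss* overexpressing and 18214 in control discs. Without *FASN1*, the most abundant gene of the list in eye discs, the sums were 11095.4 and 13151.5. The part of attached fat body in the response of the storage protein genes was not tested.

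Markers of other larval tissues were also present in the wing disc pools. Beside the counts below, 10.5% of all genes with an adjusted p passed 0.01 in wing discs and 3.34% in eye discs. Of 8 salivary gland genes with an adjusted p, 7 had a log2 fold change above 0 in wing discs and 0 passed 0.01. The glue gene *Sgs5bis*, which is outside this list, did pass in wing discs (5.67, standard error 1.42, adjusted p = 0.000938 by DESeq2). The list's summed implied normalized count was 35317 in *fuss* overexpressing and 10157 in control wing discs, or 14702 and 6234 without *Sgs3*, and its standard errors ran from 1.22 to 2.91. For the glue gene *Sgs3* the log2 fold change was 2.39 (standard error 1.37) in wing discs and 0.26 (standard error 0.70) in eye discs. The 1 gene of this list below 0 in wing discs was *ng3*, at a mean normalized count of 40.3. Its log2 fold change was -8.85 in wing discs (standard error 2.91, adjusted p = 0.0197 by DESeq2) and 2.05 in eye discs (standard error 0.98). Of 5 gut genes with an adjusted p in wing discs 2 were higher, the protease genes *Jon65Aiii* (3.96, adjusted p = 7.25e-07 by DESeq2) and *Jon65Aiv* (3.55, adjusted p = 1.36e-07 by DESeq2). The summed implied normalized count of the gut list was 545 in *fuss* overexpressing and 48.1 in control wing discs, and 153 in *fuss* overexpressing and 1204 in control eye discs, where 0 of 3 genes with an adjusted p passed. The sum in eye discs was carried by *Jon65Aiv*, which has no p-value there, and without it was 66.7 in *fuss* overexpressing and 88.0 in control eye discs. The 9 muscle genes all had log2 fold changes below 0 in wing discs, with a median of -1.46 and 0 past 0.01, and their summed implied normalized count was 8714 in *fuss* overexpressing and 24836 in control wing discs. In eye discs the summed count of the salivary gland genes was 10577 with *fuss* overexpression and 12029 in controls, and that of the muscle genes was 15991 and 16089. The 10 haemocyte markers summed to 40073 with *fuss* overexpression and 28229 in control eye discs, where 5 were higher and 0 lower, and to 40137 and 45411 in wing discs, where 2 were higher and 1 lower. The gene that was lower is *Ppn*, the most abundant of the list. Without it the haemocyte markers summed to 18968 with *fuss* overexpression and 11307 in control wing discs. Most of that difference lay in the 2 higher genes. These were *Col4a1* (8385 with *fuss* overexpression and 3954 in controls) and *vkg* (5236 and 2453). The tissue that made the RNA of these 2 genes was not tested. In wing discs *Hml*, *NimC1*, *He*, *Pxn* and *eater* did not pass 0.01. Their log2 fold changes were 0.60, 0.25, 0.24, -0.05 and -0.12 in that order, with standard errors from 0.18 to 0.37. Of 6 tracheal genes 1 was lower in eye discs (*verm*) and 2 in wing discs (*trh* and *pio*), and 0 were higher. In eye discs *trh* did not pass (-1.30, adjusted p = 0.117 by DESeq2), and *btl* passed in neither tissue. The mean normalized count in eye discs was 18806 for *verm* and 175 for *trh*. The part of these tissues in the response was not tested.

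**Figure D4:**
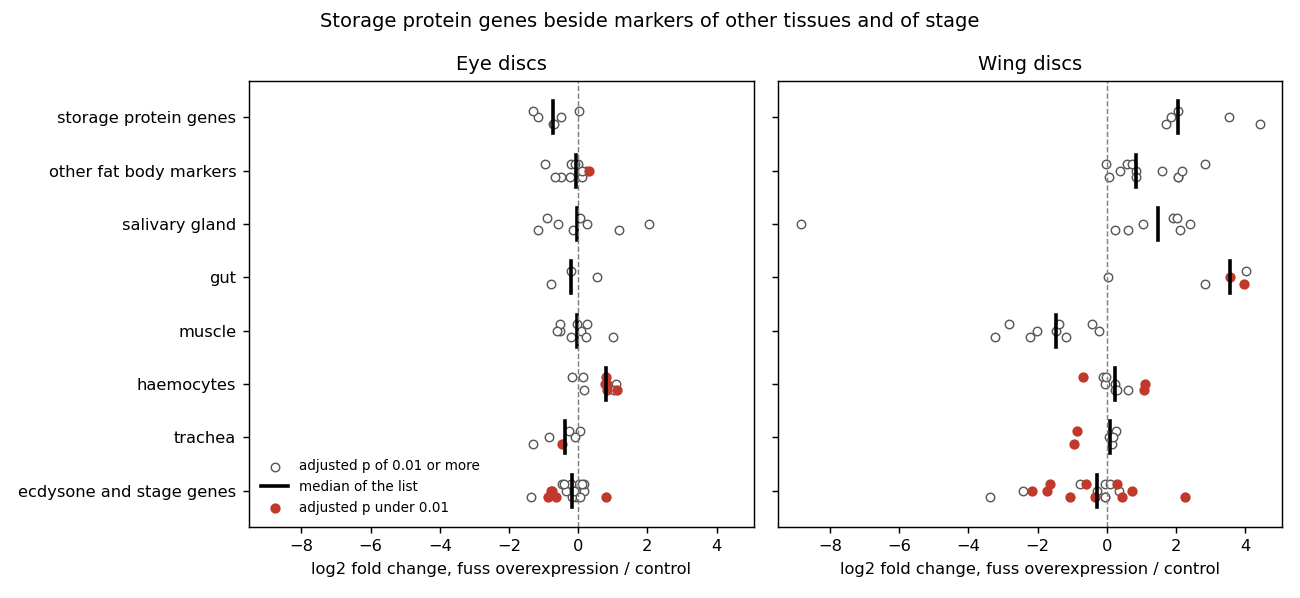
Log2 fold changes (*fuss* overexpression / control) of all genes with an adjusted p in 8 lists, in eye discs (left) and wing discs (right); filled points passed an adjusted p of 0.01 and the bar is the median of the list. In wing discs the median is 2.07 for the storage protein genes, without *Lsp1gamma*, 0.84 for the other fat body markers, 1.48 for the salivary gland genes and -1.46 for the muscle genes.

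The storage protein genes are expressed late in larval life, so genes that follow ecdysone and developmental stage were set beside them. Of 19 such genes with an adjusted p in wing discs 4 were higher and 6 lower. Of all 10926 genes with an adjusted p there, 566 were higher and 583 lower, together 10.5%. The ecdysone-induced genes *ImpE2* (-1.66, adjusted p = 1.08e-09 by DESeq2) and *ImpE1* (-1.72, adjusted p = 0.00271 by DESeq2) were lower. The nuclear receptor gene *ftz-f1*, which acts after the ecdysone peak, was higher with a log2 fold change of 2.25 (standard error 0.14). The repressor gene *Blimp-1*, which times *ftz-f1*, was lower with -2.17 (standard error 0.61). In eye discs 1 of 19 was higher and 4 were lower, with 0.81 for *ftz-f1* and -0.77 for *Blimp-1*. Of all 10788 genes with an adjusted p in eye discs, 3.34% passed. Of 10 genes listed as regulators of the storage protein genes or of their hormone response, 2 were higher and 1 lower in wing discs and 0 passed in eye discs. The list shares some genes with the list of stage genes. Those that passed were the ecdysone receptor gene *EcR* (0.73, standard error 0.08), *Eip74EF* (0.44, standard error 0.08), and the ecdysone-induced gene *br*, which was lower (-0.35, standard error 0.08). The fat body factor genes *srp* (0.28, standard error 0.70) and *svp* (0.31, standard error 0.14) did not pass in wing discs. The part of stage in the response of the storage protein genes was not tested.

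Relatives of the members by sequence gave no common direction. The prophenoloxidase genes belong to the same superfamily as the hexamerins and are expressed in haemocytes. For *PPO1* the log2 fold change was 0.68 (standard error 0.35) in eye discs and -0.87 (standard error 0.35) in wing discs, and *PPO2* had 0.91 (standard error 0.39) and -0.51 (standard error 0.52), and neither passed 0.01 in either tissue. *Adh*, which encodes alcohol dehydrogenase and is expressed in the larval fat body, had 2.13 (standard error 1.57) in wing discs and -0.38 (standard error 0.25) in eye discs. *Adhr*, which shares its locus with *Adh*, is listed at 0 in both tissues.

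Over the 2 comparisons, the genes whose log2 fold changes lay nearest to the members' median pair of -0.72 in eye discs and 2.27 in wing discs were *Adgf-D*, *Hf*, *CG2736*, *CG31775* and *CG42587*. Their distances on the log2 scale were 0.080 to 0.162, among the 9459 genes whose mean reached 10 in both tissues. *CG31775* was the most abundant of them, with a mean normalized count of 1090 in eye discs and 7229 in wing discs and log2 fold changes of -0.73 (standard error 0.78) and 2.11 (standard error 1.38). This likeness rests on 2 values per gene, and none of the 5 genes passed an adjusted p of 0.01 in either tissue.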

How the data were processed

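RNA was sequenced from pooled discs in 12 libraries, 3 for each genotype and tissue, grouped by the sample titles. The authors ran Salmon 1.1.0 on a BDGP6 release, tximeta for import and DESeq2 1.30.0 for the comparison of genotypes within a tissue. In the deposited tables, the mean normalized count is a signal (counts over size factors), the log2 fold change and its standard error are on the log2 scale, the Wald statistic is a score, and the p-value and adjusted p are those of the authors. For strand use, design formula and shrinkage, nothing is given in the sources used here. These columns are the authors' own comparison and were used because the tables hold no other measurement. No column held values per library.

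A check of the columns against one another found a largest gap of 9.77e-14. Calls used an adjusted p under 0.01 over all genes, as in the study. Intervals of 95% took the standard error under the normal distribution. Implied normalized counts are the 2 group levels that give the deposited mean, for equal groups, and the fold change, and the coefficient of variation follows from the standard error after removing Poisson noise. Both are approximations. The eye minus wing difference was divided by the root of its summed squared standard errors, over all genes that reached a mean of 10 and had a p-value in both tissues, with Benjamini-Hochberg adjustment. Of 111 list entries all matched, 2 of them by a synonym (*Lsd-1* and *MsrA*). Genes named are the 6 members, *fuss*, the 5 nearest genes, and list members. Naming up to 4 genes of smallest p per list and tissue was planned, but not all of these are named. Further list members were chosen after their values were seen. Members and lists were chosen with earlier results of these data known. Positions are those of BDGP6.54. Calculations were tested on simulated data. Sums of marker lists without their most abundant gene were added after seeing the data. Alternatives were thresholds, filters, Student's distribution, recentring, scaled standard errors and length. Sequence identity of the paralogs was not analysed here. Python 3.11.15, numpy 2.4.6, pandas 2.3.3, scipy 1.17.1 and matplotlib 3.10.9 were used.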

Additional observations from a re-analysis of the deposited data

How the results depend on the processing

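The count of storage protein genes called stayed at 0 in eye discs, in wing discs and in the eye minus wing difference under every alternative run, except that 1 gene, *Lsp1alpha*, was called in wing discs at an adjusted p under 0.05. The fold change limit, Student's distribution and scaled standard errors can only remove calls, so 0 under them was fixed in advance. In eye discs the smallest unadjusted p of the 6 genes was 0.160 by DESeq2, so no threshold or filter used could call one. Recentring, the only alternative that could move a log2 fold change within a tissue, turned no sign, and *Lsp1gamma* in wing discs was run only with its p-value put back. The adjusted p of *Lsp1alpha* in wing discs ran from 0.0212 to 0.545 and that of *Lsp1beta* from 0.0774 to 0.746. For the difference they ran from 0.119 to 0.442 and from 0.110 to 0.434. With genes lacking a p-value put back under the normal p of their statistic, chosen after seeing the data, *Lsp1gamma* had an adjusted p of 0.266 in wing discs. Over all genes, calls numbered 547 in eye discs, 1745 in wing discs and 416 in the difference at 0.05, and 166, 316 and 104 when an absolute log2 fold change of 1 or more was also required, beside 360, 1149 and 232 in the comparisons reported. With scaled standard errors 273 genes were called in wing discs. With Student's distribution 0 genes were called in eye and in wing discs and 10 in the difference, by its wider tails. Per kilobase, *Lsp1alpha* and *Fbp2* exchanged ranks 5 and 6 in eye discs. No paired analysis was possible because the tables hold no values per library, and for the same reason no fit without a replicate was run. Wide standard errors, few pools and, in wing discs, uneven lanes limit what can be seen here.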

Other observations

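Storage protein genes were not alone in combining a high level with a wide error in wing discs. With limits chosen after the values were seen, 45 of the 4812 genes whose mean reached 1000 had a standard error over 0.8, which is 0.935%. All 6 storage protein genes are among them, and 33 of the 45 had log2 fold changes above 0. The largest were *CG7606* (5.82, standard error 1.50) and *Sgs5bis* (5.67, standard error 1.42), both with an adjusted p under 0.01 in the authors' DESeq2 test. The odorant binding protein gene *Obp99b* (1.93, standard error 1.15) and *fon* (2.65, standard error 1.38), which encodes a clotting protein and has no p-value, also belong to this set. Among the 12 with log2 fold changes below 0 were the flight muscle actin gene *Act88F* (-8.99, no p-value), the myosin gene *Mhc* (-3.22) and the ecdysone-regulated receptor genes *Hr3* (-3.38) and *Hr4* (-2.43).

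In eye discs 21 of 4603 genes met the same limits, 3 of them storage protein genes (*Lsp1alpha*, *Lsp1beta* and *Lsp1gamma*), and 18 of the 21 had log2 fold changes below 0. The glue gene *Sgs5* had -1.15 (standard error 0.94) and *Sgs7* had -0.58 (standard error 0.86), while the glue gene *Sgs4* had 0.06 (standard error 0.82). The beta-alanine synthesis gene *b* had -2.84 (standard error 1.28).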
